A study of Mus musculus with 18 samples.

Results

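Scavenger receptors for modified LDL were followed in mouse bone marrow-derived macrophages through 8 genes, taken by gene symbol from the 31053 genes of the count table: *Cd36*, *Scarb1*, *Msr1*, *Marco*, *Olr1*, *Cxcl16*, *Cd68* and *Lrp1*. Each symbol matched 1 gene. The libraries came from 6 mice, 3 wild type (WT) and 3 with deletion of *Slc7a7*, labelled Slc7a7KO. The study describes C57Bl/6J mice of 12 weeks in which Cre is driven from the LysM locus, so that deletion depends on cells that use that locus. Macrophages grown for 7 days with M-CSF or L-cell conditioned medium were kept for 24 h in vehicle (Ctrl), 50 μg/mL acetylated LDL (Ac-LDL, labelled acLDL) or 100 μg/mL oxidized LDL (Ox-LDL, labelled oxLDL). Each mouse gave 1 library in each of the 3 media, which made 18 libraries in 6 groups of 3. The doses of Ac-LDL and Ox-LDL differed, so the form of LDL and its dose cannot be told apart in a comparison of one with the other.

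Scavenger receptors bind chemically modified lipoproteins, and macrophages in which they deliver more cholesterol than can be exported become foam cells. Their uptake is not held back by the sterol feedback that limits the uptake of native LDL. The receptors belong to unrelated protein families. *Msr1* and *Marco* encode collagen-like class A receptors, *Cd36* and *Scarb1* class B receptors, *Cd68* a mainly endolysosomal class D glycoprotein, *Olr1* the lectin-like class E receptor LOX-1 and *Cxcl16* a membrane-bound chemokine that also binds oxidized lipoprotein (SR-PSOX). *Lrp1* encodes a large endocytic receptor for many lipoprotein and protease ligands. In GRCm38 all 8 are on the minus strand, with *Msr1* at chr8:39581685-39642673, *Marco* at chr1:120474538-120505024, *Scarb1* at chr5:125277087-125341094, *Olr1* at chr6:129485244-129507165, *Cxcl16* at chr11:70453983-70459984 and *Lrp1* at chr10:127538161-127621148.

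Libraries held between 1043492 and 1768816 counts (median 1466145). Levels are CPM, counts scaled by library size and TMM factor. Fold changes and p-values were obtained with edgeR (quasi-likelihood) on 12290 genes, and p was adjusted by Benjamini-Hochberg over all of them, with 0.05 as the threshold. *Slc7a7*, the deleted gene, was at 11.1 to 29.3 CPM in WT and 2.22 to 10.9 CPM in Slc7a7KO libraries, and with the media summed per mouse it was lower in Slc7a7KO by a log2 fold change of -1.80 ± 0.19 (SE, adjusted p = 0.0112, 3 against 3 mice). By medium the *Slc7a7* value was -2.89 in Ac-LDL (adjusted p = 0.000472), and it did not pass in Ctrl (-1.18, adjusted p = 1.0) or in Ox-LDL (-1.50, adjusted p = 0.276). *Lyz2*, the gene at the LysM locus, was lower in Slc7a7KO with 2 of the media, with log2 fold changes of -1.23 in Ac-LDL (adjusted p = 0.0149) and -1.24 in Ox-LDL (adjusted p = 0.0263), and did not pass in Ctrl (-0.87, adjusted p = 0.562) or with the media summed (-1.08, adjusted p = 0.98). All 8 macrophage markers were detected. The 7 other than *Lyz2* summed to 2740 to 6534 CPM in WT and 3634 to 6596 CPM in Slc7a7KO libraries, whereas 5 lymphoid markers summed to at most 0.842 CPM and 5 erythroid markers to at most 2.19 CPM. With Ox-LDL the same 7 markers summed to 2740 to 5015 CPM in WT and 3634 to 4449 CPM in Slc7a7KO, against 3694 to 6534 and 5375 to 6596 CPM in Ctrl. The 8 neutrophil markers, of which *Retnlg* was at 0 in all libraries, summed to 72.9 to 126 CPM in Ctrl, 78.9 to 216 CPM in Ac-LDL and 142 to 252 CPM in Ox-LDL in WT, and to 52.0 to 141 CPM, 25.6 to 64.6 CPM and 63.0 to 115 CPM in Slc7a7KO. The 4 platelet markers, with *Gp9* at 0 in all libraries, summed to 12.6 to 22.3 CPM in Ctrl and 26.9 to 28.4 CPM in Ox-LDL in WT, and to 12.1 to 21.1 CPM and 20.5 to 29.5 CPM in Slc7a7KO. The 6 stromal markers summed to 0.0 to 14.6 CPM in Ctrl and 0.617 to 26.9 CPM in Ox-LDL in WT, and to at most 6.96 CPM in Slc7a7KO libraries. The part of these cells in the receptor levels was not tested. The libraries of WT mouse 1 stood apart. Their 7 macrophage markers summed to 3694 CPM in Ctrl, 3558 CPM in Ac-LDL and 2740 CPM in Ox-LDL. In the libraries of the other WT mice they summed to 4443 to 6534 CPM. The edgeR fits were therefore also computed without WT mouse 1, whereas levels, overlaps and correlations use all libraries. In bulk RNA fewer cells that express a gene and less of its RNA per cell cannot be told apart.

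Exposure to modified LDL moved the receptors in opposite directions. *Cd36* rose about 3-fold with Ox-LDL in both genotypes, *Cxcl16* fell to less than its control range, *Scarb1* also fell, and *Cd68* stayed within overlapping ranges in every medium. *Msr1* rose with Ox-LDL in Slc7a7KO cells. In WT it missed the threshold in the main edgeR fit and passed with the mouse as a block. Of the 7 members with enough counts to test, 3 passed in WT cells with Ox-LDL, 1 higher and 2 lower, where 1.34% of all genes tested passed, and DESeq2 called 4 (1.49% of all genes), *Msr1* being the added one. In Slc7a7KO cells with Ox-LDL, 4 passed, 2 higher and 2 lower, against 2.32% of all genes. With Ac-LDL, 1 member passed in WT cells (0.472% of all genes) and 0 in Slc7a7KO cells (0.521% of all genes), although 6 of the 7 had an unadjusted p under 0.05 in either genotype (7.33% and 7.53% of all genes). DESeq2 called 2 with Ac-LDL in WT (0.602%) and 0 in Slc7a7KO (0.618%). Because the 3 media came from the same mice, a fit with the mouse as a block was also made. Its values are given for part of the results. The block fit called 5 of the members with Ac-LDL in WT (2.16% of all genes) and 4 in Slc7a7KO (2.5%), and with Ox-LDL 4 in WT (4.39%) and 6 in Slc7a7KO (7.18%). The other alternatives, including those that leave out a library, did not use the block. The ranges given below over alternatives thus do not show how stable a call with the block is. The groups did not overlap for 4 members with Ac-LDL in WT (11% of all genes), 6 in Slc7a7KO (16.7%), 4 with Ox-LDL in WT (11.8%) and 6 in Slc7a7KO (21.6%). The Ac-LDL and Ox-LDL comparisons of a genotype share their control libraries.

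**Figure D1:**
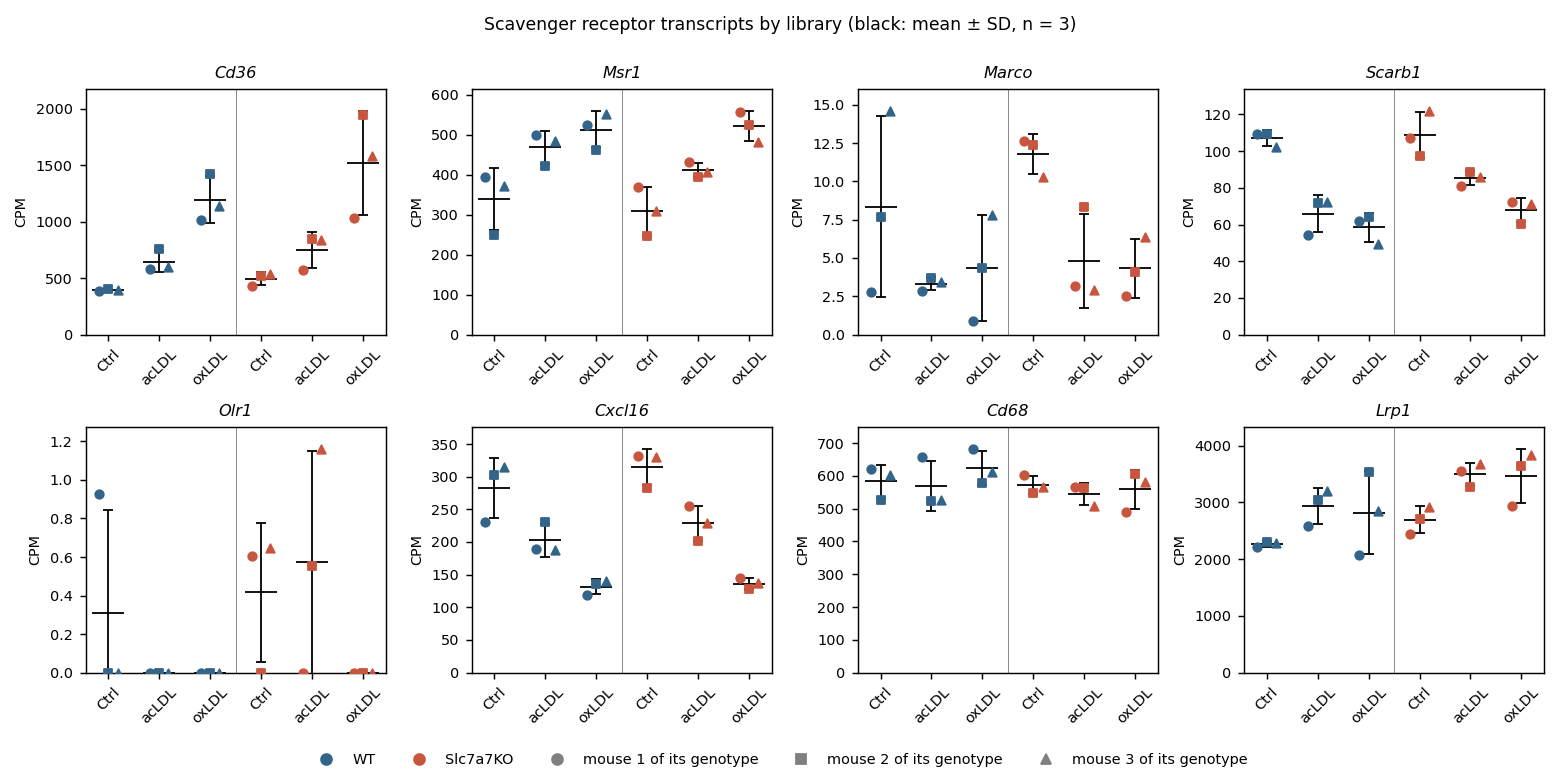
Level of each of the 8 receptor genes in CPM on a linear axis from 0, by genotype and medium. Coloured points are single libraries, the shape marks the mouse, and black bars give mean and SD over 3 mice. *Cd36* and *Msr1* are highest and *Cxcl16* and *Scarb1* lowest with Ox-LDL, *Cd68* is level, and *Olr1* is at or near 0.

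*Cd36*, the class B receptor for oxidized phospholipids and long-chain fatty acids, showed the largest rise. In WT cells it was at 383, 406 and 393 CPM in Ctrl, 584, 754 and 599 CPM in Ac-LDL and 1019, 1425 and 1139 CPM in Ox-LDL (mice 1, 2 and 3). In Slc7a7KO cells the values were 432, 520 and 535 CPM in Ctrl, 570, 846 and 836 CPM in Ac-LDL and 1033, 1947 and 1579 CPM in Ox-LDL. Within each genotype the 3 media did not overlap. The log2 fold change with Ox-LDL was 1.60 ± 0.20 (SE) in WT (3.03-fold, adjusted p = 2.06e-05) and 1.62 ± 0.20 in Slc7a7KO (3.07-fold, adjusted p = 1.33e-05). With Ac-LDL it was 0.71 ± 0.20 in WT (adjusted p = 0.147) and 0.60 ± 0.19 in Slc7a7KO (adjusted p = 0.27), neither past the threshold. With the mouse as a block both passed, at adjusted p = 2.25e-05 in WT and 0.00025 in Slc7a7KO. The WT value also passed by DESeq2 (adjusted p = 0.0398) and with no filter (0.00262). The Slc7a7KO value also passed with no filter (0.0292) and with only the compared libraries (0.023). Over the 26 alternatives the adjusted p ran from 2.25e-05 to 0.488 in WT and from 0.00025 to 0.792 in Slc7a7KO.

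The stretch around the RefSeq start of *Cd36*, whose transcript changed most, is shown with that of *Cd68*, which stayed level. RefSeq promoter entries (build GRCm38.p6, 250 bases before to 50 after the start) were found for 5 of the 8 members, *Cd36*, *Marco*, *Olr1*, *Cd68* and *Lrp1*. *Cd36* lies on chr5:17781690-17888801 and *Cd68* on chr11:69664213-69666153, both on the minus strand, and the entries below are chr5:17835847-17836146 and chr11:69666121-69666420. The start used for *Cd36* is inside the annotated span of the gene, so other starts are not covered. Capitals mark AGGTCA and GGGCGG in *Cd36*, and TGANTCA and GGGCGG in *Cd68*, on either strand.
Cd36: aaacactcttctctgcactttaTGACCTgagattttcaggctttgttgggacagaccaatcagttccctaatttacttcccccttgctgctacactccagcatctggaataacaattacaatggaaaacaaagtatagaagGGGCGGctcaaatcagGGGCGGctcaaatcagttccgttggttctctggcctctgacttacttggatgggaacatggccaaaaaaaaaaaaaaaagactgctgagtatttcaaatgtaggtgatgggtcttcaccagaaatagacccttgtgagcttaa
Cd68: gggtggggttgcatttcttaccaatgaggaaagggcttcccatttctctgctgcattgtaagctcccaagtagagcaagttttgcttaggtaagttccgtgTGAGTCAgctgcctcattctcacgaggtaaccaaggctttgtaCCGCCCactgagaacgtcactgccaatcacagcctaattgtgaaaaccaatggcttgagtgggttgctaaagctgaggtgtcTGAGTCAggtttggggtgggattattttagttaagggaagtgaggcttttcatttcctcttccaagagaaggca
The *Cd36* stretch holds AGGTCA, the half-site bound by many nuclear receptors, on the opposite strand at bases 23 to 28, and the GC box GGGCGG at bases 142 to 147 and 158 to 163. The *Cd68* stretch holds the AP-1 motif TGANTCA at bases 102 to 108 and 227 to 233, which reads the same on both strands, and GGGCGG on the opposite strand at bases 145 to 150. AGGTCA was present in 16.3%, GGGCGG in 35.7% and TGANTCA in 7.81% of the 32851 promoter entries of the same length. Among the members, AGGTCA and TGANTCA were also in the entry of *Olr1*, and GGGCGG in that of *Lrp1*. AGGTCA repeated after 1 base or after 4 bases, the arrangements named direct repeat 1 and direct repeat 4, was in 0.0396% and 0.0152% of entries and in none of the 5 members' entries. The PU.1 motif GAGGAAGT (3.2% of entries) was also in none of the 5, and TGACNNNGC, the core of the antioxidant response element (12.4%), was in that of *Lrp1* only. Such matches describe letters in a window and are not sites of binding.

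*Scarb1*, which encodes the class B receptor SR-BI for high-density lipoprotein, moved against *Cd36*. WT cells held 110, 110 and 102 CPM in Ctrl, 54.1, 71.7 and 72.1 CPM in Ac-LDL and 61.8, 64.2 and 49.6 CPM in Ox-LDL. Slc7a7KO cells held 107, 97.2 and 122 CPM in Ctrl, 81.2, 88.9 and 85.8 CPM in Ac-LDL and 72.4, 60.2 and 71.1 CPM in Ox-LDL. In both genotypes every library with LDL was below every control library. The gene fell with Ox-LDL, by a log2 fold change of -0.87 ± 0.15 in WT (adjusted p = 0.00103) and -0.68 ± 0.14 in Slc7a7KO (adjusted p = 0.00714). It also fell with Ac-LDL in WT (-0.69 ± 0.15, adjusted p = 0.0253), and had a value of -0.35 ± 0.14 in Slc7a7KO (adjusted p = 0.492). The WT call with Ac-LDL was lost without Ctrl mouse 2 (adjusted p = 0.115) or 3 (0.0676), without Ac-LDL mouse 1 (0.183) or 3 (0.0625) and without all libraries of WT mouse 1 (0.128), over a range of 0.00219 to 0.223 in 26 alternatives. The Slc7a7KO call with Ox-LDL was lost without Ctrl mouse 3 (0.0665) or Ox-LDL mouse 2 (0.0723), over a range of 0.00038 to 0.0723. *Scarb1* overlaps Gm42633 on the same strand.

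*Msr1* and *Marco*, the class A receptors, differed in level and in direction. *Msr1*, the receptor for acetylated LDL, was at 396, 250 and 373 CPM in Ctrl, 499, 423 and 484 CPM in Ac-LDL and 525, 462 and 551 CPM in Ox-LDL in WT. In Slc7a7KO it was at 369, 247 and 309 CPM, 432, 395 and 408 CPM, and 557, 525 and 483 CPM in the same order. Every library with LDL exceeded every control library of its genotype. *Msr1* rose with Ox-LDL in Slc7a7KO (log2 fold change 0.76 ± 0.16, 1.69-fold, adjusted p = 0.00772), a call lost without Ctrl mouse 2 (adjusted p = 0.079, the highest of 26 alternatives, whose lowest was 7.48e-07). In WT the value with Ox-LDL was 0.60 ± 0.16 (adjusted p = 0.0664). It passed in 5 of the 26 alternatives, with the mouse as a block (6.25e-05), by DESeq2 (0.0158), with no filter (0.00905), without Ctrl mouse 1 (0.0236) and without WT mouse 1 (0.0293), over a range of 6.25e-05 to 0.439. With Ac-LDL the values were 0.47 ± 0.16 in WT and 0.42 ± 0.16 in Slc7a7KO (adjusted p = 0.373 and 0.447). Both passed with the block (0.00369 and 0.011), where ranges reached 0.798 and 0.872.

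*Marco*, a receptor for bacteria and particles, was close to the lower limit of counting. Its counts were 3, 11 and 20 in WT Ctrl, 3, 5 and 5 in Ac-LDL and 1, 7 and 12 in Ox-LDL, and 21, 20 and 16, then 4, 15 and 5, then 3, 6 and 11 in Slc7a7KO. In Slc7a7KO all libraries with either LDL were below the controls, whereas in WT the groups overlapped. None of its log2 fold changes against Ctrl passed, with -1.37 ± 0.51 for Ox-LDL in Slc7a7KO (adjusted p = 0.219) and -0.89 ± 0.55 in WT (adjusted p = 0.672). The block gave adjusted p = 0.049 for Ox-LDL in Slc7a7KO, within a range of 0.0346 to 0.523 over 25 alternatives. At these counts a change of the size seen for *Scarb1* was not detectable, since the 95% interval in WT with Ox-LDL ran from -2.03 to 0.25.

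*Cxcl16*, the membrane-bound chemokine, showed the largest fall among the members past the threshold. WT cells held 230, 303 and 316 CPM in Ctrl, 189, 231 and 187 CPM in Ac-LDL and 118, 136 and 140 CPM in Ox-LDL. Slc7a7KO cells held 331, 283 and 330 CPM in Ctrl, 255, 202 and 229 CPM in Ac-LDL and 145, 127 and 137 CPM in Ox-LDL. The Ox-LDL libraries lay below all others in each genotype, and the WT Ac-LDL group overlapped Ctrl by 1 library. With Ox-LDL the log2 fold change was -1.11 ± 0.14 in WT (adjusted p = 2.67e-05) and -1.21 ± 0.14 in Slc7a7KO (adjusted p = 5.62e-06). With Ac-LDL it was -0.49 ± 0.14 in WT and -0.47 ± 0.13 in Slc7a7KO (adjusted p = 0.166 and 0.185). Both Ac-LDL values passed with the mouse as a block (0.00229 and 0.00178, the lowest of ranges up to 0.654 and 0.686), and without WT mouse 1 (0.0428 and 0.0338). The WT value also passed without Ctrl mouse 1 (0.031), and the Slc7a7KO value with only the compared libraries (0.0397). *Cxcl16* overlaps *Zmynd15* on the opposite strand, and the strand setting of the counting is not given in the sources used here.

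*Cd68*, widely used as a macrophage marker, stayed in overlapping ranges. It ranged from 526 to 622 CPM in Ctrl, 522 to 657 CPM in Ac-LDL and 579 to 682 CPM in Ox-LDL in WT, and from 549 to 602 CPM, 507 to 567 CPM and 491 to 605 CPM in Slc7a7KO. The log2 fold change with Ox-LDL was 0.10 in WT (95% interval -0.17 to 0.37) and -0.03 in Slc7a7KO (-0.30 to 0.24), intervals that hold only changes smaller than that of *Cd36*. *Olr1* was listed with 0 to 2 counts in each library and stayed below the filter. In the 13 libraries at 0 counts a level of up to 3 counts is allowed, which is 1.73 to 2.85 CPM by library and covers counting error only.

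*Lrp1*, the endocytic receptor that clears lipoprotein remnants and proteases, was the most counted member, at 2211, 2300 and 2284 CPM in WT Ctrl, 2590, 3039 and 3198 CPM in Ac-LDL and 2066, 3526 and 2855 CPM in Ox-LDL. In Slc7a7KO it was at 2449, 2709 and 2925 CPM, 3544, 3269 and 3673 CPM, and 2935, 3633 and 3831 CPM. Groups overlapped with Ctrl only for WT with Ox-LDL, through mouse 1. The log2 fold changes were between 0.31 and 0.38 in the 4 comparisons, with adjusted p from 0.366 to 0.599. With the block, 3 of the 4 passed, at adjusted p = 0.0461 for Ac-LDL in WT, 0.0317 for Ac-LDL in Slc7a7KO and 0.0209 for Ox-LDL in Slc7a7KO, each the lowest of 26 alternatives that reached 0.869, 0.912 and 0.675. Its coding transcript of 14888 bases is long, and the 276 tested genes with a coding transcript of at least 10 kb had median log2 fold changes of 0.10 to 0.17 in the same 4 comparisons, against -0.01 to 0.00 over all genes with a length. The part of transcript length in the *Lrp1* values was not tested. *Lrp1* overlaps the antisense gene Gm16217, so with the strand setting not given their reads may be shared.

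**Figure D2:**
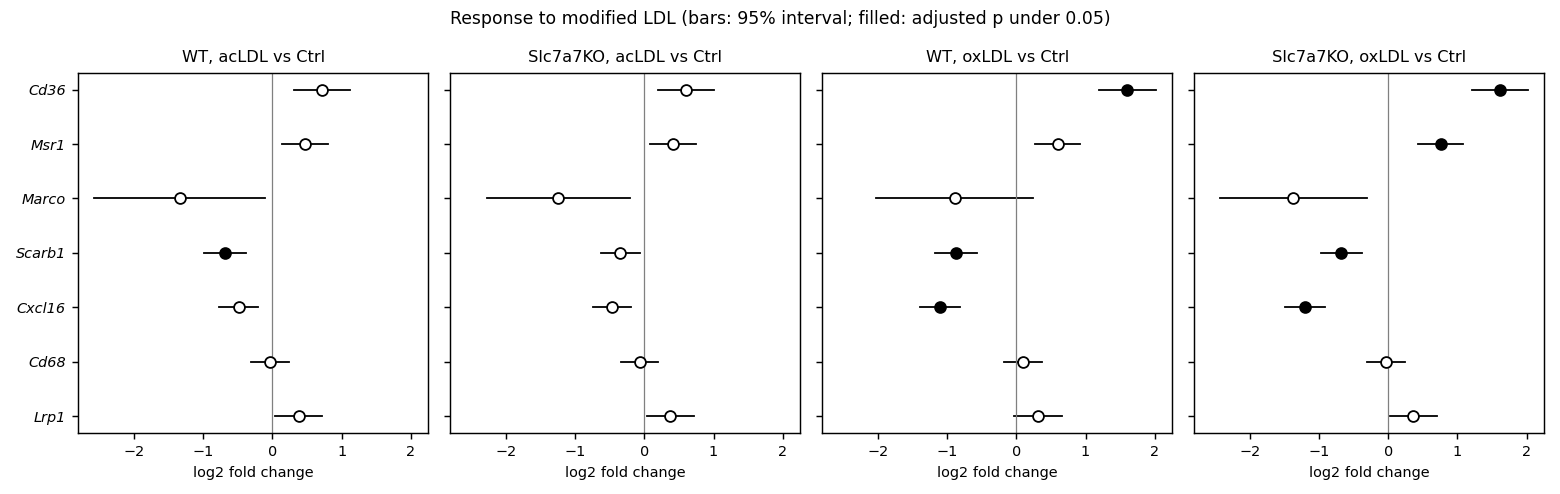
Log2 fold change of each tested member against Ctrl (x axis), one panel per LDL and genotype. Points are estimates, bars 95% intervals, and filled points have an adjusted p under 0.05. Among the filled points *Cd36* and *Cxcl16* lie farthest from 0 on opposite sides with Ox-LDL. The open point of *Marco* lies farther below 0 in Slc7a7KO with Ox-LDL (-1.37), and *Cd68* sits near 0 in all panels.

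Ox-LDL was also set against Ac-LDL in the same genotype, at the different doses given above. In Slc7a7KO cells *Cd36* was higher with Ox-LDL (log2 fold change 1.02 ± 0.19, adjusted p = 0.0381) and *Cxcl16* lower (-0.74 ± 0.14, adjusted p = 0.0368), 2 of the 7 members against 0.0651% of all genes. In WT cells the values were 0.89 ± 0.19 for *Cd36* (adjusted p = 0.325) and -0.62 ± 0.14 for *Cxcl16* (adjusted p = 0.326). The main edgeR fit called 0 members there against 0.00814% of all genes, with 2 at an unadjusted p under 0.05 (5.14%). DESeq2 called 2 (0.0895%). In neither genotype did the Ox-LDL and Ac-LDL libraries overlap for either gene. Without overlap were 2 members in WT (9.2% of all genes) and 4 in Slc7a7KO (13.4%). The further ones in Slc7a7KO were *Msr1*, higher with Ox-LDL (0.34 ± 0.16, adjusted p = 0.88), and *Scarb1*, lower (-0.33 ± 0.14, adjusted p = 0.874). In Slc7a7KO 4 members had an unadjusted p under 0.05, as did 682 of all 12290 genes. With the mouse as a block both genes passed in both genotypes, at adjusted p = 7.61e-07 and 0.000763 in WT (0.732% of all genes) and 4.42e-08 and 2.39e-05 in Slc7a7KO (1.38%). Over 26 alternatives these adjusted p reached 0.639 and 0.948 in WT and 0.562 and 0.335 in Slc7a7KO, where leaving out single libraries took both calls away. The Slc7a7KO call of *Cd36* was lost without any of 11 libraries, with adjusted p from 0.051 to 0.562, and that of *Cxcl16* without any of 9, from 0.0507 to 0.335.

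Followed within a mouse, the order of the media was the same for *Cd36*, *Cxcl16* and *Msr1* in all 6 mice. For *Msr1* the step from Ac-LDL to Ox-LDL was small in WT mice (0.07, 0.13 and 0.19). The log2 CPM of *Cd36* in Ox-LDL exceeded that in Ctrl by 1.41, 1.81 and 1.53 in WT and by 1.26, 1.90 and 1.56 in Slc7a7KO mice. That of *Cxcl16* changed by -0.95, -1.14 and -1.17 in WT and -1.19, -1.14 and -1.26 in Slc7a7KO mice (SD 0.12 and 0.06). *Msr1* in Ox-LDL exceeded Ctrl by 0.41, 0.88 and 0.56 in WT and 0.59, 1.08 and 0.64 in Slc7a7KO mice, and mouse 2 of each genotype, lowest in Ctrl, had the largest difference. *Scarb1* was below Ctrl in all 6 mice with each LDL, but in WT mouse 1 its Ox-LDL level lay above its Ac-LDL level by 0.19.

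**Figure D3:**
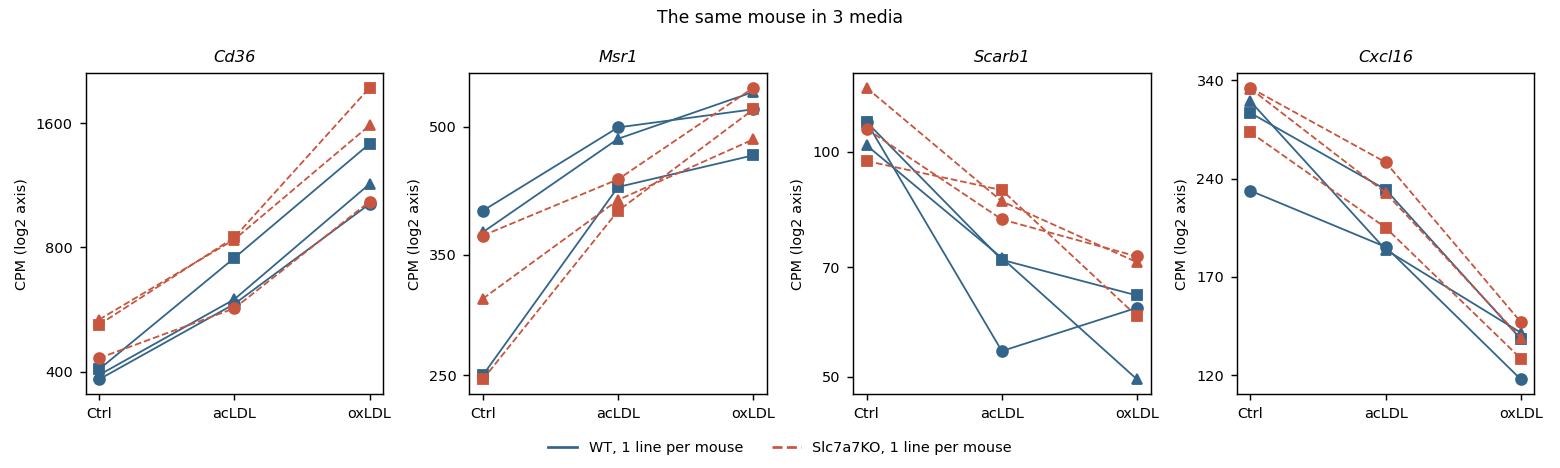
CPM of 4 members on a log2 axis across Ctrl, Ac-LDL and Ox-LDL, with 1 line per mouse, solid for WT and dashed for Slc7a7KO. *Cd36* and *Msr1* climb and *Cxcl16* descends at each step in all 6 mice, whereas 1 WT line of *Scarb1* turns upward from Ac-LDL to Ox-LDL.

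The genotypes were compared within each medium. No member passed by edgeR in Ctrl (0.00814% of all genes), Ac-LDL (0.0163%) or Ox-LDL (0.00814%), or with counts summed over media per mouse (0.00789%). At an unadjusted p under 0.05 there were 0, 1, 0 and 0 members. DESeq2 also called no member, and of all genes it called 3, 6, 1 and 5 in the same order. The genotypes did not overlap for 2 members in Ctrl (9.28% of all genes), 2 in Ac-LDL (10.4%) and 0 in Ox-LDL (9.3%). The 1 with an unadjusted p under 0.05 was *Scarb1* in Ac-LDL (4.89% of all genes), where all 3 Slc7a7KO libraries lay above all WT libraries (log2 fold change 0.36 ± 0.15, 95% interval 0.06 to 0.66, adjusted p = 0.99). *Cd36* was 0.33 ± 0.20 higher on the log2 scale in Slc7a7KO Ctrl cells (adjusted p = 1.0), with no overlap between the genotypes, and the 95% interval of -0.07 to 0.74 does not leave out a difference of the size seen with Ac-LDL. In Ox-LDL the *Cd36* difference was 0.35 (-0.05 to 0.75), with overlapping libraries. *Lrp1* was 0.25 higher in Slc7a7KO in Ctrl and in Ac-LDL without overlap (adjusted p = 1.0 and 0.99), and the tested genes of at least 10 kb had medians of 0.07 and 0.10 there. *Cd68* and *Msr1* had intervals within -0.51 to 0.35 in all 3 media.

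**Figure D4:**
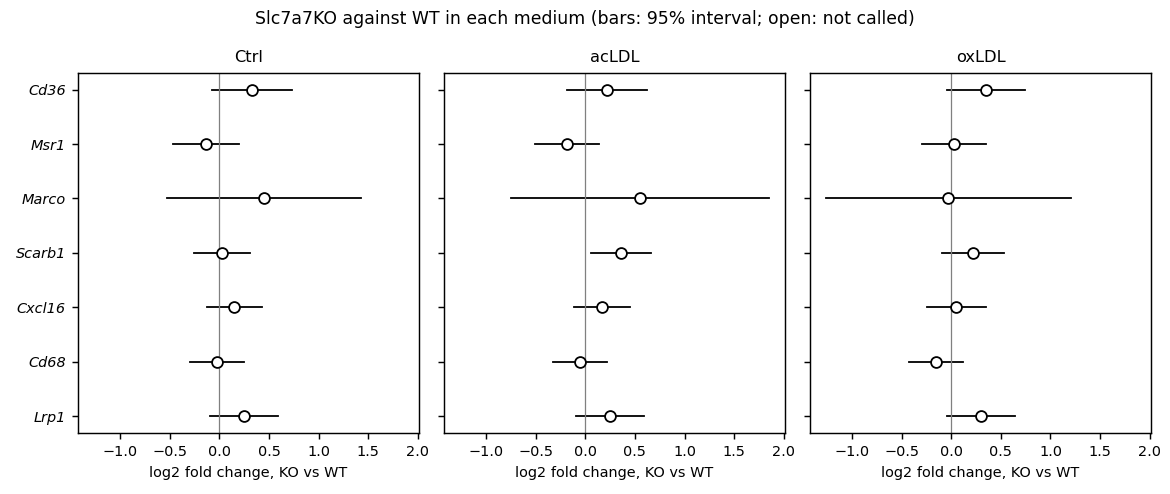
Log2 fold change of Slc7a7KO against WT for the 7 tested members (x axis), 1 panel per medium, with 95% intervals. All points are open because no adjusted p was under 0.05, and *Marco* has the widest interval in each panel.

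The response itself was compared between the genotypes by an interaction term. No member passed by edgeR for Ac-LDL or for Ox-LDL, where 0.0% of all genes passed in either, and 0 members had an unadjusted p under 0.05. DESeq2 called 0 members, and of all genes 1 for Ac-LDL and 0 for Ox-LDL. For *Cd36* the difference in the response to Ox-LDL was 0.02 ± 0.28 (95% interval -0.55 to 0.59) and to Ac-LDL -0.11 ± 0.28 (-0.68 to 0.46). For *Cxcl16* the Ox-LDL value was -0.10 ± 0.20 (-0.51 to 0.30), and for *Scarb1* the Ac-LDL value was 0.34 ± 0.20 (-0.08 to 0.75). With the mouse as a block no member passed either. The *Cd36* values were then -0.01 ± 0.14 (SE) for Ox-LDL and -0.12 ± 0.14 for Ac-LDL. The block gave -0.10 ± 0.14 for *Cxcl16* with Ox-LDL and 0.34 ± 0.18 for *Scarb1* with Ac-LDL.

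Levels of different genes were compared per kilobase of the longest protein-coding transcript. In WT Ctrl cells the order was *Cd68* (474 ± 42 CPM per kb, SD), *Lrp1* (152 ± 3.2), *Cd36* (116 ± 3.3), *Cxcl16* (105 ± 17), *Msr1* (93.3 ± 22), *Scarb1* (42.5 ± 1.7), *Marco* (4.34 ± 3.1) and *Olr1* (0.0866 ± 0.15). *Cxcl16* (85.3 to 117) overlapped both *Cd36* and *Msr1*, whereas the *Cd36* libraries (113 to 119) lay above those of *Msr1* (68.7 to 109). In Ox-LDL *Cd36* reached 351 CPM per kb in WT and 447 ± 135 in Slc7a7KO and passed *Lrp1* (189 and 233 ± 32), while *Msr1* (141 and 144) passed *Cxcl16* (48.7 and 50.5). *Cd68* had the highest mean in WT Ox-LDL (508 ± 43) and in Slc7a7KO Ox-LDL (454 ± 49), and in the latter it was not separated from *Cd36*, whose libraries ranged from 304 to 573 against 399 to 492 for *Cd68*. The rank of each member in these 3 groups was the same with the union of exons in place of the longest transcript.

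Other receptors and partners were read from lists. Of 26 other scavenger and lipoprotein receptors, 19 were tested, and 2 were lower and 0 higher in each of the 4 comparisons of an LDL with Ctrl. Of all genes tested, 0.472% passed with Ac-LDL and 1.34% with Ox-LDL in WT, and 0.521% and 2.32% in Slc7a7KO. Among them was *Tlr2*, a receptor for bacterial lipoproteins. *Tlr2* fell from 277 ± 65 to 72.2 ± 19 CPM with Ox-LDL in WT (log2 fold change -1.92, adjusted p = 6.63e-07) and from 202 ± 29 to 60.7 ± 15 CPM in Slc7a7KO (-1.75, adjusted p = 4.27e-06). The list's median log2 fold change was 0.06 in WT and 0.09 in Slc7a7KO, against 0.01 and 0.00 over all genes.

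Of 29 partners and regulators of CD36, CXCL16 and LRP1, 26 were tested. With Ox-LDL 5 were lower and 0 higher in WT (1.34% of all genes), and 4 lower and 1 higher in Slc7a7KO (2.32%). The list medians were -0.09 and -0.06, against 0.01 and 0.00 over all genes. *Cav1*, which encodes caveolin-1, fell by log2 fold changes of -1.53 in WT and -1.71 in Slc7a7KO (adjusted p = 0.000146 and 1.76e-05). *Adam17*, a protease of the family that sheds CXCL16 and other surface proteins, fell from 439 ± 107 to 240 ± 53 CPM in WT (-0.87, adjusted p = 0.00735) and from 521 ± 29 to 256 ± 8.6 CPM in Slc7a7KO (-1.03, adjusted p = 0.001). *Nr1h3*, which encodes the sterol-sensing receptor LXRα, fell in both genotypes (-0.88 in each, adjusted p = 0.0217 and 0.0138), as did *Spi1*, which encodes the macrophage factor PU.1 (-0.65 and -0.50, adjusted p = 0.00409 and 0.0274). *Src*, a membrane-associated kinase, fell in WT (-1.84, adjusted p = 0.0345), and its response was not called as different between the genotypes. With Ac-LDL 1 was higher and 1 lower in WT (0.472% of all genes), and 0 higher and 1 lower in Slc7a7KO (0.521%). *Cav1* fell with Ac-LDL in both genotypes (-1.27 and -1.12, adjusted p = 0.00233 and 0.0044).

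All 15 genes of cholesterol handling after uptake were tested, and 2 were higher and 3 lower in each of the 4 comparisons. The share of all genes that passed in these ranged from 0.472% to 2.32%. The transporters *Abca1* and *Abcg1*, which export cholesterol, rose with Ox-LDL by log2 fold changes of 1.62 and 2.01 in WT and 1.59 and 1.72 in Slc7a7KO (adjusted p = 0.000652, 1.32e-06, 0.000547 and 7.8e-06). *Srebf2* and *Insig1*, which encode regulators of sterol synthesis, fell with log2 fold changes of -1.62 and -1.91 in WT and -1.50 and -2.11 in Slc7a7KO. With Ox-LDL the median of the list was 0.11 in both genotypes, against 0.01 in WT and 0.00 in Slc7a7KO over all genes. No gene of the 3 lists passed in a comparison of genotypes.

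The genes most like each member were sought by Pearson's r of log2 CPM over the 18 libraries, among tested genes with a mean of at least 20 CPM. The libraries share mice and media, so r describes the profile and carries no test. *Cxcl16* was most like *Ptpn6* (r = 0.96), *Slc2a6* (0.96) and *Gsap* (0.95). *Cd36* was most like *Alcam* (0.93), *R3hdm1* (0.92) and B430306N03Rik (0.91), and for *Scarb1* the like genes included *Msmo1* (0.91), an enzyme gene of cholesterol synthesis, and *Ptpn6* (0.91). *Msr1* was most like *Nek6* (0.90), *Mfsd6* (0.89) and *Dusp3* (0.88), and *Lrp1* most like *Macf1* (0.93), *Atrx* (0.91) and *Epb41* (0.90). *Cd68* was most like *Prdx6* (0.89), *Vat1* (0.85) and *Atp6v1a* (0.81), and *Marco* most like *Pirb* (0.82), *Btg1* (0.82) and *Glyr1* (0.82).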

How the data were processed

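RNA-Seq of the 18 libraries was single-end, from a stranded total RNA kit. In the nf-core pipeline the authors used Trim Galore for trimming, STAR for alignment (mm10) and salmon to quantify genes of Ensembl release 93. The values deposited by the authors are estimated counts (expected counts) per gene, not normalized, and versions are not given in the sources used here. All columns belong to these samples. Nothing states that cultures were grown more than once per mouse and medium. The spread within a group thus holds mouse, culture and library preparation, which cannot be told apart.

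Counts were rounded, and genes were filtered with filterByExpr (minimum count 2, minimum total count 10), which left 12290 genes (12673 with counts summed per mouse) and left out *Olr1*. edgeR (version 4.0.16, R 4.3.3) fitted the 6 groups together by quasi-likelihood after TMM scaling. Alternatives were DESeq2 (1.42.0), other scalings and filters, only the compared libraries, each library left out, and the mouse as a block, by limma (3.58.1) between genotypes. No library was left out in the fit with the block. The labels number the same mouse in each medium within a genotype, and the 18 same-mouse pairs of libraries had deviations from group means that correlated at 0.112 to 0.564, so the mouse pairs the media. Mice of the 2 genotypes differ. The count columns' names end in S numbers that are lower in all WT than in all Slc7a7KO libraries. What they number is not given in the sources used here, and it cannot be told apart from genotype. No replicate pair was as close as counting error alone allows (chi-square of 2.03 to 12.7 per degree of freedom). Total counts of 1043492 to 1768816 per library limit the precision of genes with low counts. Exact two-sided permutation tests of 3 against 3 cannot go below p = 0.10 and are not used. The fit was tested on simulated data.

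All members but *Olr1* were tested in every comparison, and not all of their values are given. List genes are named only where they passed (at most 5 per list and comparison), and like genes are the 3 most like per member. A few of these list and like genes are not reported here. The members and lists were chosen with earlier results of these data known. Coordinates are those of GENCODE vM21 (GRCm38), and promoters are from RefSeq.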

Additional observations from a re-analysis of the deposited data

How the results depend on the processing

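No log2 fold change of a member with an unadjusted p under 0.05 changed its sign in any alternative. The 6 comparisons of genotypes or of their responses had 0 members called in all 141 alternative fits. With the mouse as a block, 5 members rather than 1 were called with Ac-LDL in WT, 4 rather than 0 with Ac-LDL in Slc7a7KO and 2 rather than 0 for Ox-LDL against Ac-LDL in WT, and the block moved no other count of members by over 1.5 times. With Ac-LDL in WT the count of members was 2 by DESeq2 and with no filter, 0 with library size scaling and with only the compared libraries, and 0 to 2 when each library was left out. With Ac-LDL in Slc7a7KO it was 1 with no filter, 2 with only the compared libraries and 1 without WT mouse 1 (an alternative chosen after seeing the data). For Ox-LDL against Ac-LDL it was 2 in WT by DESeq2 and with no filter, and in Slc7a7KO 1 with library size scaling and 0 to 2 when each library was left out. The cause was not tested. Over the alternatives, the number of all genes called ran from 32 to 265 (main 58) with Ac-LDL and from 62 to 539 (main 165) with Ox-LDL in WT, from 31 to 307 (main 64) and from 149 to 882 (main 285) in Slc7a7KO, from 1 to 90 (main 1) and from 1 to 169 (main 8) for Ox-LDL against Ac-LDL in WT and Slc7a7KO, from 0 to 28 (main 1), 1 to 45 (main 2) and 0 to 34 (main 1) between genotypes in Ctrl, Ac-LDL and Ox-LDL, from 0 to 73 (main 1) over media, and from 0 to 18 and 0 to 15 (main 0 and 0) for the responses. Per kb, exon unions lowered *Scarb1* in WT Ctrl from 42.5 to 12.6 and *Msr1* from 93.3 to 53.5 CPM. Depth limits *Marco* and *Olr1*.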

Other observations

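Over the 18 libraries the log2 CPM of *Cd36* and *Cxcl16* had a Pearson's r of -0.87, that of *Scarb1* and *Cxcl16* of 0.84 and that of *Msr1* and *Scarb1* of -0.81. As deviations from the group means, over the same libraries, r was -0.12, 0.10 and -0.15. These pairs do not stand for all. *Cd36* and *Lrp1* had r = 0.62 over the libraries and 0.60 as deviations, and *Cd36* and *Msr1* had 0.65 and -0.44. The libraries share mice and scaling, and these values are descriptions. The ratio of *Cd36* to *Scarb1* counts within a library, which does not depend on scaling, was 3.50 to 3.85 in WT Ctrl and 16.5 to 23.0 in WT Ox-LDL, and 4.02 to 5.35 and 14.3 to 32.3 in Slc7a7KO.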
